A study of Homo sapiens with 5 samples.

Results

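The mitochondrial genome and the nuclear genes that replicate, transcribe, process and translate it were followed in HEK293 cells, a line that derives from human embryonic kidney. The genes were taken by name: the 13 protein genes of the mitochondrial genome and 44 nuclear genes, 57 in all of 16677 genes in the table. All 57 had a row and all 57 passed the filter on low counts, which kept 16310 genes. Messenger RNA was sequenced in 5 libraries of cells under basal culture. Of these, 2 were of wild-type genotype, called Control 1 and Control 2 here. The other 3 have the genotype rs11607019, a T-to-C variant that the series places in SIRT3, and are called variant 1, variant 2 and variant 3. SIRT3 is the main protein deacetylase of the mitochondrial matrix. Whether libraries of 1 group are separate clones or repeats of a culture is not in the labels, so the p-values measure only the spread between these libraries. The labels also leave out how the variant was introduced and how many copies of the gene carry it. The library name of variant 3 has a prefix that the other 4 lack, and the labels do not say what it means.

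Library totals lay between 17122569 and 17596084 counts. Of 8 genes listed as HEK293 markers, 5 had a row, and NEFL, NEFM and INA had none. The 5 had summed levels of 700 to 939 counts per 1000000 counts (CPM) in the Controls and 777 to 1132 CPM in the variant libraries. VIM (328 to 618 CPM) and KRT8 (226 to 371 CPM) were the highest of them. LIN28B stood at 79.5 and 52.4 CPM in the Controls and at 71.4, 42.1 and 27.3 CPM in the variant libraries, and PAX2 at 9.94 to 22.0 CPM. Of 10 markers of fibroblasts, blood cells and endothelium, only COL1A1 had a row, at 28.4 to 46.3 CPM. CPM values here are counts scaled to the library's total and composition with the trimmed mean of M-values (TMM).

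Human mitochondrial DNA is a small circle read from both strands into long transcripts, by a polymerase of its own, POLRMT. Enzymes cut the transfer RNAs out of these transcripts. The messengers between them are released, most of them are polyadenylated, and they are translated on mitochondrial ribosomes. The 13 protein genes encode core subunits of respiratory complexes I, III and IV and of ATP synthase. Every protein needed to copy, read and translate the circle is made from nuclear genes and imported.

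The question asked of these genes was whether the mitochondrial transcripts and the nuclear machinery moved together between the genotypes. No member passed an adjusted p of 0.05 by edgeR's quasi-likelihood test (lowest 0.617), and the share over all tested genes was 0%. DESeq2 called 32 genes, 0 of them members, and limma-voom called 0 genes. At an unadjusted p under 0.05 there were 7 of 57 members, against 7.62% of all tested genes. The same 7 had an unadjusted p under 0.05 by DESeq2, and limma-voom added MT-CO2. Of the 7, 5 were lower in the variant (3.51% of all tested genes) and 2 were higher (4.11%). The lower genes were MT-ND3, MT-ATP6, SSBP1, TEFM and YARS2, and the higher genes were AARS2 and FARS2. Without Control 1 the number was 0. Once GC content and length of the transcripts were corrected for it was 2, FARS2 and YARS2. It was 4 without variant 1 and also 4 without variant 2, and 3 with the replicate number as a block (SSBP1, AARS2 and YARS2).

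By direction, 11 of the 13 mitochondrial genes and 32 of the 44 nuclear genes were lower in the variant, where 8081 of all 16310 tested genes (49.5%) were lower. The median log2 difference of the variant from Control was −0.17 for the mitochondrial genes and −0.14 for the nuclear genes, beside 0.003 over all tested genes. The groups did not overlap at 18 of 57 members, against 24.8% of all tested genes. At 15 of these the variant was lower (13% of all tested genes) and at 3 it was higher (11.8%). With the correction for GC content and length the medians were 0.05 and −0.05, with 4 of 13 and 27 of 44 genes lower, so the sign of the mitochondrial median turned. Without Control 1 the medians were −0.09 and −0.07, and without variant 3 they were −0.09 and −0.11. The 13 mitochondrial transcripts are short for such a correction, with a median of 784 bases against 3118 bases over all tested genes. In bulk RNA, fewer cells with a transcript and less of it per cell cannot be told apart.

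**Figure D1:**
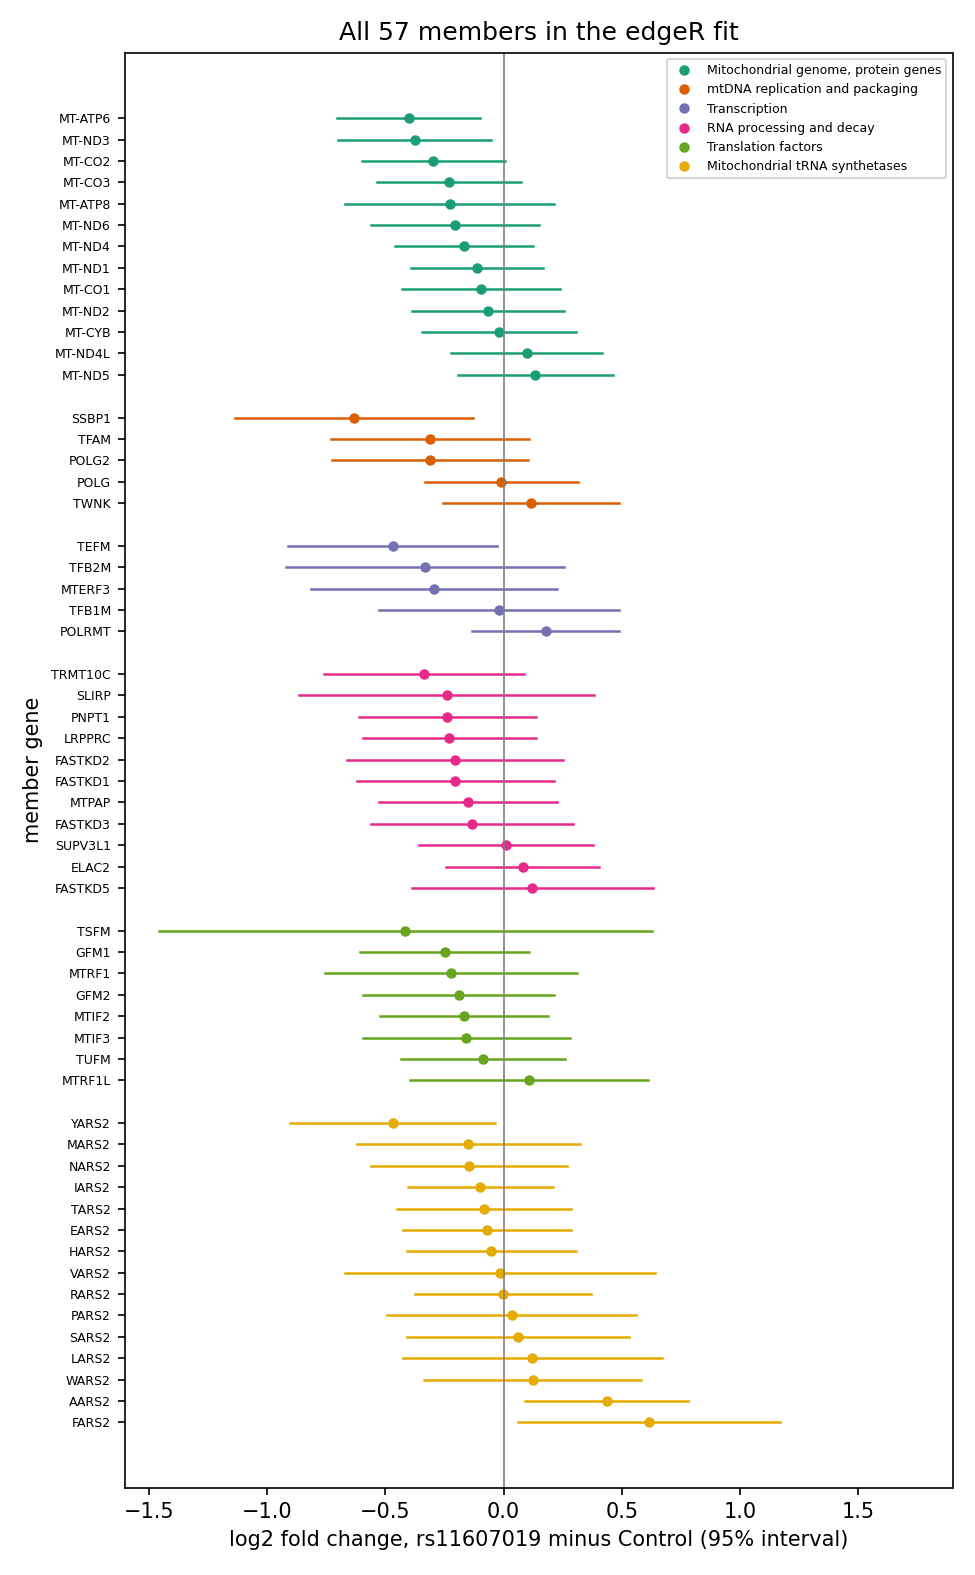
Log2 fold change of each of the 57 members, variant minus Control, with its 95% confidence interval from the edgeR fit (2 Control and 3 variant libraries), colored by role. Of the 57 points 43 lie left of 0, and the intervals of 7 members exclude 0 before adjustment.

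The mitochondrial genes are described first. Their bases can be assigned to a single gene only in part, because neighbours on the circle share letters. These junctions are shown, from GENCODE release 29 transcripts on GRCh38, because they bear on the counts of the short genes. Capitals mark the bases that belong to both genes, flanked by 10 bases on each side.
MT-ATP8 into MT-ATP6 (chrM:8517-8582, forward strand): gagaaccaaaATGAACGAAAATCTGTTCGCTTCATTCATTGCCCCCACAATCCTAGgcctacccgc
MT-ND4L into MT-ND4 (chrM:10750-10776, forward strand): acctactccaATGCTAAaactaatcgt
The first pair shares 46 bases, 22.2% of MT-ATP8 and 6.75% of MT-ATP6, with reads of 50 bases. The other pair shares 7 bases, 2.36% of MT-ND4L. MT-ATP6 and MT-CO3 share 1 further base. How the counting treated reads that touch 2 genes is not given in the sources used here.

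The ends of the messengers also differ. In 6 of the 13 genes the annotation stops after 1 or 2 letters of the stop codon, and the poly(A) tail supplies the rest. The last 18 bases of MT-ND4 and MT-ND1, which end this way, are set beside MT-CO2, which has the whole stop codon, with the stop letters in capitals.
MT-ND4: ttaccgggttttcctctT
MT-ND1: cattccccctcaaaccTA
MT-CO2: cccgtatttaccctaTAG
All 6 genes with a tail-completed stop had lower values in the variant (median log2 difference −0.14). Of the 7 that end on a whole codon in the annotation 5 were lower, with a median of −0.20. MT-ATP6 is counted among these 7, but the last base of its stop codon is also the first base of MT-CO3. Its place in this grouping is therefore uncertain, and the 2 medians are not set against each other.

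Together the 13 mitochondrial genes took 5.11% of the counts in Control 1 (95% Wilson interval 5.099 to 5.12) and 4.77% in Control 2 (4.76 to 4.78). They took 4.72% in variant 1 (4.71 to 4.73), 4.71% in variant 2 (4.704 to 4.72) and 3.93% in variant 3 (3.92 to 3.94). Without molecular identifiers such intervals hold the error of counting alone. The group means were 4.94% ± 0.243 for Control (SD, n = 2) and 4.46% ± 0.452 for the variant (SD, n = 3). Variant 1 and variant 2 lay next to Control 2, Control 1 lay above them, and variant 3 lay apart below the other 4 libraries.

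Variant 3 was below the 5-library mean at 13 of 13 mitochondrial genes and was the lowest library at 11 of them. Control 1 was above the mean at 11 and the highest library at 9. The median deviation of the 13 genes from the 5-library mean was 0.17 in Control 1, 0.03 in Control 2, 0.08 in variant 1, 0.03 in variant 2 and −0.24 in variant 3, on the log2 scale. By this median the groups overlapped, since variant 1 and variant 2 lay above Control 2.

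**Figure D2:**
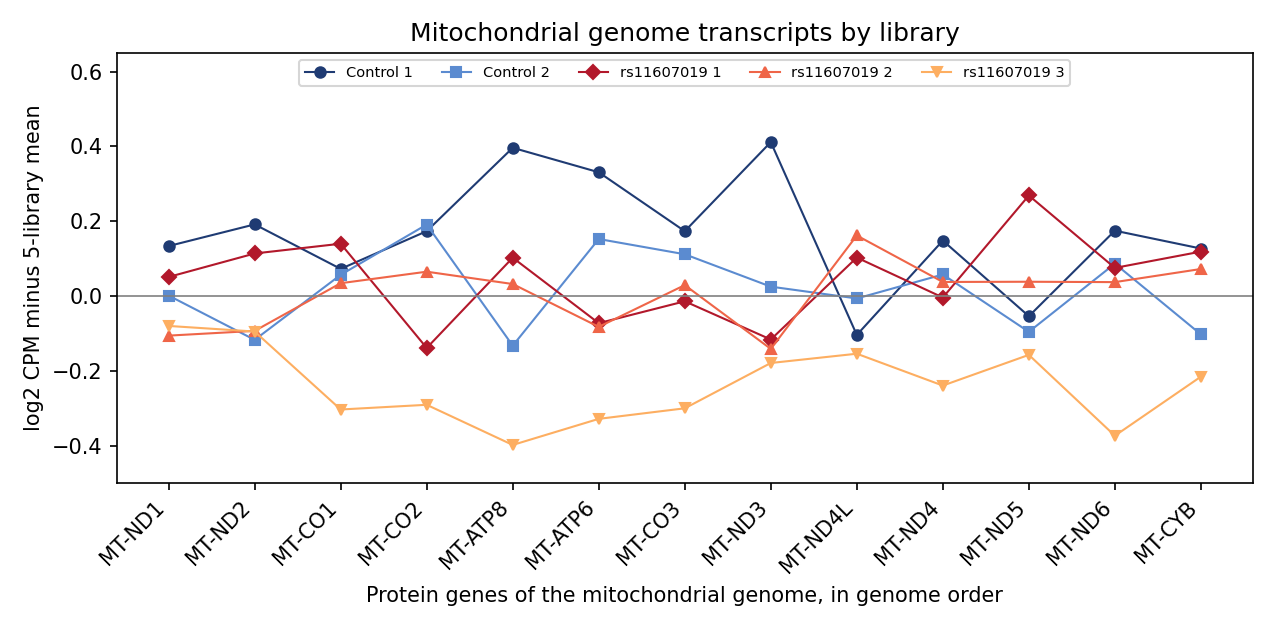
Level of each mitochondrial protein gene in each library, as log2 CPM minus the mean of the 5 libraries, with genes in their order on the circle. Variant 3 lies below 0 at all 13 genes, and Control 1 stands highest at MT-ATP8, MT-ATP6 and MT-ND3.

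The 2 mitochondrial genes with an unadjusted p under 0.05 sit close together on the circle. MT-ATP6 (chrM:8527-9207), a proton channel subunit of ATP synthase, stood at 3735 and 3300 CPM in the Controls and at 2823, 2804 and 2364 CPM in the variant libraries. All 3 variant libraries lay below both Controls. Its log2 fold change was −0.40 (SE 0.14, 95% confidence interval −0.70 to −0.10), with an unadjusted p of 0.0149 (edgeR, adjusted p 0.617). It kept its sign in every alternative, from −0.49 to −0.16. MT-ND3 (chrM:10059-10404), a complex I subunit, stood at 1065 and 815 CPM in the Controls and at 739, 726 and 707 CPM in the variant libraries. Its groups did not overlap, but the Controls were farther apart than Control 2 was from any variant library. Its log2 fold change was −0.38 (SE 0.14, interval −0.70 to −0.05; edgeR, adjusted p 0.619), and −0.02 with the correction for GC content and length. Without Control 1 it was −0.17.

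The 3 other genes between MT-CO1 and MT-ND4L were also lower. MT-CO2, a core subunit of complex IV that holds a copper center, stood at 6763 and 6846 CPM in the Controls and at 5446, 6274 and 4902 CPM in the variant libraries. Its groups did not overlap, and its log2 fold change was −0.30 (SE 0.14, adjusted p 0.657 in edgeR's test). MT-CO3, a structural subunit of the same complex, stood at 7286 and 6981 CPM and at 6398, 6593 and 5246 CPM, also without overlap. MT-ATP8, a small membrane subunit of ATP synthase, stood at 1069 and 741 CPM and at 872, 830 and 616 CPM, with Control 2 below 2 of the variant libraries.

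The run of 5 neighbouring genes from MT-CO2 to MT-ND3 had a median log2 difference of −0.30, from −0.40 to −0.23, and the other 8 mitochondrial genes had −0.08, from −0.20 to 0.14. This run was singled out after its values were seen. Its genes are short, with a median length of 681 bases against 1092 for the others. Over the 13 genes the log2 fold change had a Spearman correlation of 0.500 with transcript length, as a description of genes that share libraries. With the correction for GC content and length the run had −0.04 and the other 8 genes 0.11. The part that length has in the difference was not tested.

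Of the complex I genes, MT-ND5 and MT-ND4L had positive values. MT-ND5, a proton-pumping membrane subunit, stood at 5039 and 4895 CPM in the Controls and at 6303, 5372 and 4690 CPM in the variant libraries, with variant 1 highest and variant 3 lowest. MT-ND4L stood at 546 and 585 CPM and at 631, 657 and 528 CPM. Its groups overlapped through variant 3. MT-ND4, the membrane subunit encoded on the same messenger as MT-ND4L, stood at 6908 and 6487 CPM and at 6216, 6398 and 5280 CPM, with both Controls above the variant libraries. Their log2 fold changes were 0.14 (SE 0.15), 0.10 (SE 0.14) and −0.17 (SE 0.13), with adjusted p-values of 0.831, 0.882 and 0.756 in edgeR's test.

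MT-ND1 and MT-ND2, membrane subunits of complex I, were close to the spread of the Controls. MT-ND1 stood at 2650 and 2418 CPM in the Controls and at 2503, 2245 and 2285 CPM in the variant libraries. MT-ND2 stood at 2384 and 1924 CPM and at 2259, 1957 and 1954 CPM. MT-CO1, the subunit of complex IV that reduces oxygen, stood at 7075 and 6998 CPM and at 7413, 6890 and 5452 CPM, so variant 1 was highest and variant 3 lowest. MT-CYB, the cytochrome b of complex III, stood at 5554 and 4737 CPM and at 5523, 5348 and 4380 CPM. Their log2 fold changes were −0.11, −0.07, −0.10 and −0.02, and each was smaller than its SE (0.12, 0.14, 0.15 and 0.15).

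MT-ND6 (chrM:14149-14673), a complex I subunit, is the only 1 of the 13 genes on the reverse strand of the annotation. It stood at 914 and 860 CPM in the Controls and at 853, 831 and 625 CPM in the variant libraries, so its groups did not overlap, although Control 2 and variant 1 were close. Its log2 fold change was −0.20 (SE 0.16, adjusted p 0.755 in edgeR's test), and −0.08 without variant 3. Per base, MT-ND6 had 0.626 and 0.606 times the counts of its neighbour MT-ND5 in the Controls and 0.467, 0.534 and 0.460 times in the variant libraries. Such a ratio is taken within a library and does not depend on scaling between libraries. It was computed without the correction for GC content and length, and the 2 genes differ in length (525 and 1812 bases). With that correction MT-ND6 deviated from its 5-library mean by −0.14 in Control 1 and 0.17 in variant 2. MT-ND5 then deviated by −0.13 and 0.11, so MT-ND6 lay below MT-ND5 in Control 1 and above it in variant 2. The separation of the groups was thus not kept. The transfer RNA rows of the reverse strand, MT-TC, MT-TY, MT-TE and MT-TP, were all 4 lower, with log2 fold changes of −0.63, −0.79, −0.83 and −0.41. MT-TY stood at 38.0 CPM in Control 1, 17.7 CPM in Control 2 and 16.8, 17.9 and 13.6 CPM in the variant libraries, so only Control 1 stood apart. With MT-TC, MT-TY and MT-TE lower, and MT-TF and MT-TV higher, 5 of 13 transfer RNA rows fell below the unadjusted threshold of 0.05 (edgeR). Over all tested genes that share was 7.62%. Of the 9 transfer RNA rows on the forward strand 4 were lower, and their median was 0.06. With the correction for GC content and length, the median of all 13 rows turned from −0.115 to 0.41. The number of rows below the threshold was then 3. These 13 rows had a median length of 68 bases and a median level of 4.58 CPM. The correction was fitted on genes above a mean log2 CPM of 3, so it is an extrapolation for many of these rows. The transfer RNA values by strand given here are without that correction. Transfer RNAs are poorly captured by a poly(A) protocol and reached at most 40.6 CPM here, and no row of either strand had an adjusted p under 0.05.

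Of 7 ratios computed, 4 separated the groups. MT-ND5 to MT-CO1 was 0.606 and 0.595 in the Controls and 0.724, 0.664 and 0.732 in the variant libraries, so MT-ND5 was also higher relative to MT-CO1, not only relative to MT-ND6. MT-ATP6 to MT-CO1 was 1.195 and 1.07 in the Controls and 0.862, 0.922 and 0.982 in the variant libraries. MT-ND4L to MT-ND4 was 0.367 and 0.418 in the Controls and 0.471, 0.477 and 0.464 in the variant libraries. These genes lie on the same messenger, so their ratio compares reads along 1 RNA and not the levels of separate transcripts. The corresponding ratio of MT-ATP8 to MT-ATP6 overlapped, at 0.942 and 0.738 in the Controls and 1.02, 0.974 and 0.857 in the variant libraries. These ratios were chosen after the values were seen, carry no test and were computed without the correction for GC content and length.

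**Figure D3:**
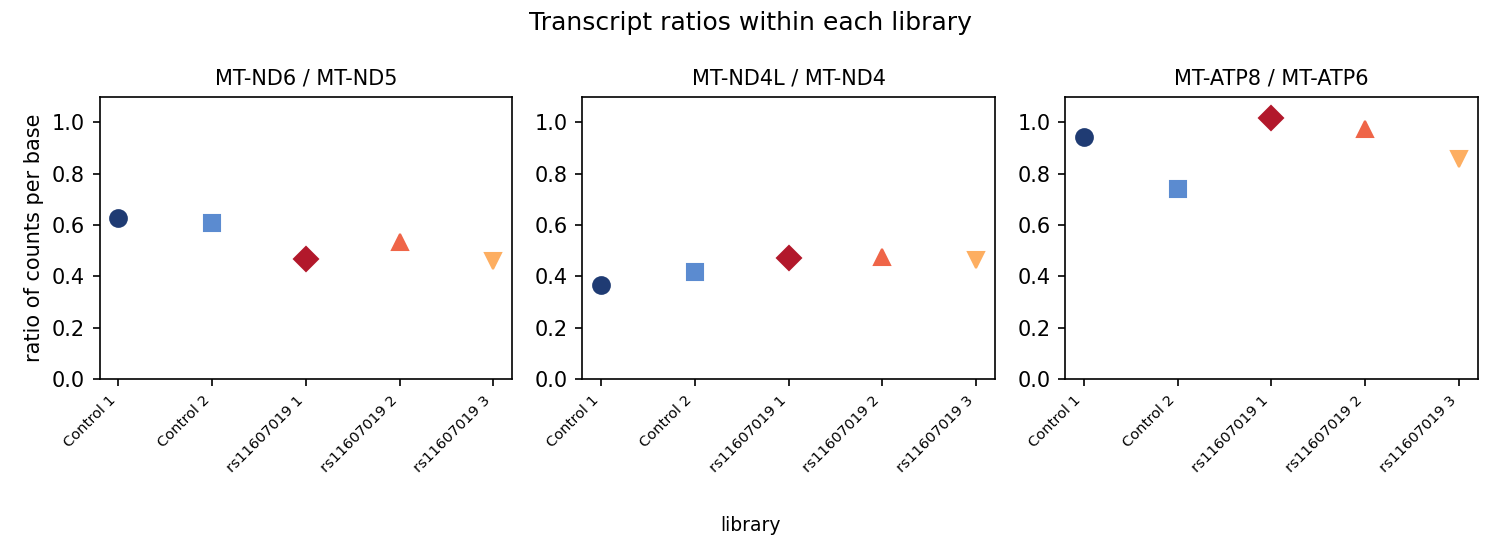
Ratio of counts per base of gene for 3 neighbouring pairs of mitochondrial genes, 1 point for each library on an axis from 0. The ratios are without the correction for GC content and length. MT-ND4L and MT-ND4 lie on the same messenger. The MT-ND6 to MT-ND5 ratio is 0.606 or more in both Controls and 0.534 or less in the variant libraries, and the MT-ATP8 to MT-ATP6 ratios overlap.

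The 2 ribosomal RNAs of the circle also had negative log2 fold changes, but the order of their libraries differed from that of the messengers. MT-RNR2, the large-subunit RNA, stood at 8443 and 6236 CPM in the Controls and at 5007, 6146 and 6671 CPM in the variant libraries. MT-RNR1, the small-subunit RNA, stood at 761 and 659 CPM and at 569, 649 and 883 CPM. Control 1 was the highest library for MT-RNR2, as for the median of the messengers. Variant 3, the lowest library for the messengers, was the highest for MT-RNR1, and variant 1 was the lowest for both ribosomal RNAs. Their log2 fold changes were −0.30 (SE 0.17) and −0.02 (SE 0.19), with adjusted p-values of 0.692 and 0.988 in edgeR's test.

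Per length, the 13 mitochondrial genes differed several-fold among themselves. The mean over the 5 libraries was 8839 CPM per kilobase for MT-CO2 and 8292 for MT-CO3, with libraries from 7166 to 10010 and from 6692 to 9293, so these 2 overlapped and lay above all other members. MT-ND4, MT-CYB, MT-ATP6, MT-CO1 and MT-ATP8 came next, at 4541, 4477, 4413, 4387 and 3989 CPM per kilobase, and their library ranges overlapped too. MT-ND5, MT-ND1, MT-ND3, MT-ND2 and MT-ND4L followed at 2903, 2532, 2342, 2011 and 1984, with overlap between neighbours in that order. MT-ND6 was lowest at 1556, from 1191 to 1741, below all libraries of MT-ND4L (1777 to 2212). MT-ND4L and MT-ND4 lie on the same messenger, yet stood at 1984 and 4541 CPM per kilobase. The order therefore ranks counted reads per gene, not the levels of separate messengers. How well the poly(A) protocol captured each messenger was not measured, so these are ranks of captured RNA, that of MT-ND6 included. The nuclear members lay far below, with a median of 16.2 CPM per kilobase and a highest mean of 262 for TUFM.

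Copies of mitochondrial genes in the nuclear genome can share reads with the originals. The table held rows for nuclear pseudogenes of 11 of the 13 genes. Their summed counts were 9.33% to 11.3% of those of MT-ATP6 and 7.65% to 8.54% of those of MT-ND2 over the 5 libraries, 2.54% to 2.88% for MT-ND4 and 1.12% to 2.01% for MT-CO1. For the other 7 genes with such rows they stayed at or below 0.793%. How reads that match both an original and a copy were treated is not given in the sources used here. These shares therefore set no limit on the uncertainty of the levels, for MT-ATP6 and MT-ND2 or for the other genes with copies.

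The nuclear genes for replication and packaging of mitochondrial DNA come next. Of these 5 genes 4 were lower, with a median log2 difference of −0.31, and 1 had an unadjusted p under 0.05. SSBP1, the single-stranded DNA binding protein of the replication fork, stood at 274 and 154 CPM in the Controls and at 144, 121 and 148 CPM in the variant libraries. Its groups did not overlap, but Control 2 lay just above variant 3 and far below Control 1. Its log2 fold change was −0.63 (SE 0.22, interval −1.14 to −0.13), with an unadjusted p of 0.0191 (edgeR, adjusted p 0.617). Over the alternatives it ran from −0.99 without Control 2 to −0.16 without Control 1.

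TFAM, which coats the DNA and starts transcription, stood at 140 and 99.4 CPM in the Controls and at 109, 89.0 and 91.5 CPM in the variant libraries, where variant 1 lay above Control 2. POLG2, the accessory subunit of the DNA polymerase, stood at 37.2 and 29.8 CPM and at 29.1, 25.4 and 26.6 CPM, with no overlap. Their log2 fold changes were −0.31 (SE 0.19) for both, with adjusted p-values of 0.703 in edgeR's test. Without Control 1 they were −0.04 for TFAM and −0.14 for POLG2. POLG, the catalytic subunit, stood at 164 and 152 CPM and at 157, 145 and 169 CPM. TWNK, the helicase, stood at 67.3 and 74.4 CPM and at 85.7, 67.7 and 77.0 CPM. The groups of POLG and TWNK overlapped, with log2 fold changes of −0.01 (SE 0.14) and 0.12 (SE 0.17).

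Of the 5 transcription genes, 4 were lower, with a median of −0.30. TEFM, the elongation factor of the polymerase, stood at 20.5 and 19.9 CPM in the Controls and at 15.3, 12.9 and 15.5 CPM in the variant libraries. All 3 variant libraries lay below both Controls by more than the distance between the Controls. Its log2 fold change was −0.47 (SE 0.20, interval −0.91 to −0.03), with an unadjusted p of 0.0391 (edgeR, adjusted p 0.637). With the correction for GC content and length it was −0.18. Annotation on the opposite strand covers 26.2% of its exon bases in GENCODE release 29, and the strand setting of the counts is not stated.

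POLRMT, the RNA polymerase itself, went the other way, at 131 and 130 CPM in the Controls and 153, 144 and 147 CPM in the variant libraries. Its groups did not overlap, yet the log2 fold change was 0.18 (SE 0.14, adjusted p 0.755 in edgeR's test), and it was −0.02 with the correction for GC content and length. TFB2M, the factor that melts the promoter, stood at 13.6 and 9.64 CPM and at 9.82, 7.52 and 10.4 CPM. MTERF3, of the family of termination factors, stood at 20.6 and 15.1 CPM and at 12.8, 13.6 and 17.1 CPM. TFB1M, which methylates the small ribosomal RNA, had a log2 fold change of −0.02 (SE 0.23). In TFB2M and MTERF3 Control 1 was the highest library and the groups overlapped, and without it their log2 fold changes were −0.06 and −0.05.

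The 11 genes of RNA processing and decay had 8 lower and 3 higher, a median of −0.20, and 0 with an unadjusted p under 0.05. LRPPRC, which with its partner SLIRP binds and stabilises mitochondrial messengers, stood at 247 and 202 CPM in the Controls and at 214, 195 and 166 CPM in the variant libraries. Its highest and lowest libraries were Control 1 and variant 3, as for the median of the messengers. SLIRP stood at 67.6 and 35.0 CPM and at 46.6, 49.7 and 33.9 CPM, so the Controls were farther apart than the variant libraries. Their log2 fold changes were −0.23 (SE 0.16) and −0.24 (SE 0.28), with adjusted p-values of 0.736 and 0.842 in edgeR's test. Without Control 1 LRPPRC was −0.08 and SLIRP 0.31.

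TRMT10C, a subunit of the RNase P that cuts the 5′ ends of transfer RNAs, stood at 35.4 and 28.0 CPM and at 23.8, 24.1 and 27.4 CPM, without overlap, and its log2 fold change of −0.34 (SE 0.19) was −0.16 without Control 1. ELAC2, which cuts their 3′ ends, was the most abundant of this role per length at 89.3 CPM per kilobase. It stood at 289 and 356 CPM and at 360, 327 and 336 CPM, with variant 1 above Control 2 and Control 1 lowest. PNPT1, the exonuclease of RNA decay, stood at 91.5 and 82.0 CPM and at 83.2, 72.5 and 65.1 CPM. Its helicase partner SUPV3L1 had a log2 fold change of 0.01 (SE 0.16). The RNA-binding FASTKD1, FASTKD2, FASTKD3 and FASTKD5 had log2 fold changes of −0.20, −0.21, −0.13 and 0.12, and the poly(A) polymerase MTPAP −0.15 (SE 0.19, 0.20, 0.19, 0.23 and 0.17). Of these 5 genes only FASTKD3 had groups that did not overlap.

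Of 8 translation factors 7 were lower, with a median of −0.18 and 0 at an unadjusted p under 0.05. GFM1, the elongation factor that moves the ribosome, stood at 59.2 and 57.7 CPM in the Controls and at 53.8, 47.3 and 46.4 CPM in the variant libraries, without overlap (log2 fold change −0.25, SE 0.16, adjusted p 0.720 in edgeR's test). TUFM, which brings charged transfer RNAs to the ribosome, stood at 495 and 628 CPM and at 522, 478 and 587 CPM. The groups of TUFM overlapped, and its log2 fold change was −0.09 (SE 0.15). MTRF1, a release factor, stood at 12.8 and 11.01 CPM and at 11.3, 8.44 and 10.8 CPM. TSFM, the exchange factor of TUFM, had only 0.395 to 0.991 CPM, and its interval of −1.46 to 0.63 spans 0 widely. The initiation factors MTIF2 and MTIF3 had log2 fold changes of −0.17 and −0.16 with groups that did not overlap. GFM2, which recycles ribosomes, had −0.19 and the release factor MTRF1L 0.11, with groups that overlapped. Annotation on the opposite strand covers 34.8% of the exon bases of MTRF1L.

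The 15 mitochondrial tRNA synthetases, which charge transfer RNAs with amino acids, were divided, with 9 lower and 6 higher and a median of −0.01. They held both genes with positive values at an unadjusted p under 0.05. AARS2, the alanyl enzyme, stood at 89.4 and 89.1 CPM in the Controls and at 133, 111 and 118 CPM in the variant libraries. FARS2, the phenylalanyl enzyme, stood at 9.50 and 12.6 CPM and at 18.1, 13.4 and 19.1 CPM. In both the variant libraries lay above the Controls. The log2 fold changes were 0.44 for AARS2 (SE 0.15, interval 0.09 to 0.78) and 0.62 for FARS2 (SE 0.25, interval 0.06 to 1.17), with adjusted p-values of 0.617 and 0.627 in edgeR's test.

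YARS2, the tyrosyl enzyme, stood at 51.6 and 39.2 CPM in the Controls and at 32.1, 29.2 and 36.9 CPM in the variant libraries, below both Controls. Its log2 fold change was −0.47 (SE 0.19, interval −0.90 to −0.04, adjusted p 0.627 in edgeR's test) and −0.46 after the correction for GC content and length. Without Control 1 it was −0.26. IARS2, the isoleucyl enzyme, was the most abundant synthetase per length at 81.6 CPM per kilobase. It stood at 314 and 291 CPM and at 301, 260 and 287 CPM, with overlap. The other 11, EARS2, HARS2, LARS2, MARS2, NARS2, PARS2, RARS2, SARS2, TARS2, VARS2 and WARS2, had log2 fold changes between −0.15 and 0.12 and groups that overlapped. Of these, LARS2 had the widest spread, with 91.7 CPM in variant 1 against 51.8 to 64.8 CPM in the other libraries. SARS2 shares 46.2% of its exon bases with other genes on its strand in GENCODE release 29, so its level is uncertain. The same holds for VARS2 (22.0%), for MTPAP (19.7%) among the RNA processing genes and for TSFM (18.7%) among the translation factors.

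Among the nuclear members the difference between the groups went with base composition. Genes are not independent replicates, so a Spearman correlation across the 44 genes is a description. That of the GC content of the longest transcript with the log2 fold change was 0.628, beside 0.335 over 16199 tested genes with a known value. In single libraries the correlation of GC content with the deviation from the 5-library mean was −0.587 in Control 1, −0.076 in Control 2, 0.247 in variant 1, 0.184 in variant 2 and 0.457 in variant 3. Of the 22 members at or below the members' median GC content of 43.5%, 20 were lower, with a median of −0.21. Of the 22 above it 12 were lower, with a median of −0.01. With the correction these medians were −0.04 and −0.05, with 13 and 14 genes lower, and the correlation was 0.003. The correction takes the trend with GC content out of each library, so a nearly flat relation after it is largely built in. It is no test of a cause. SSBP1, TEFM and TRMT10C have 39.1%, 37.1% and 39.1% GC, while AARS2 and FARS2 have 59.3% and 52.4%. FARS2 and YARS2 kept an unadjusted p under 0.05 after the correction (0.0407 and 0.0354), and SSBP1 and AARS2 had 0.0628 and 0.0716.

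**Figure D4:**
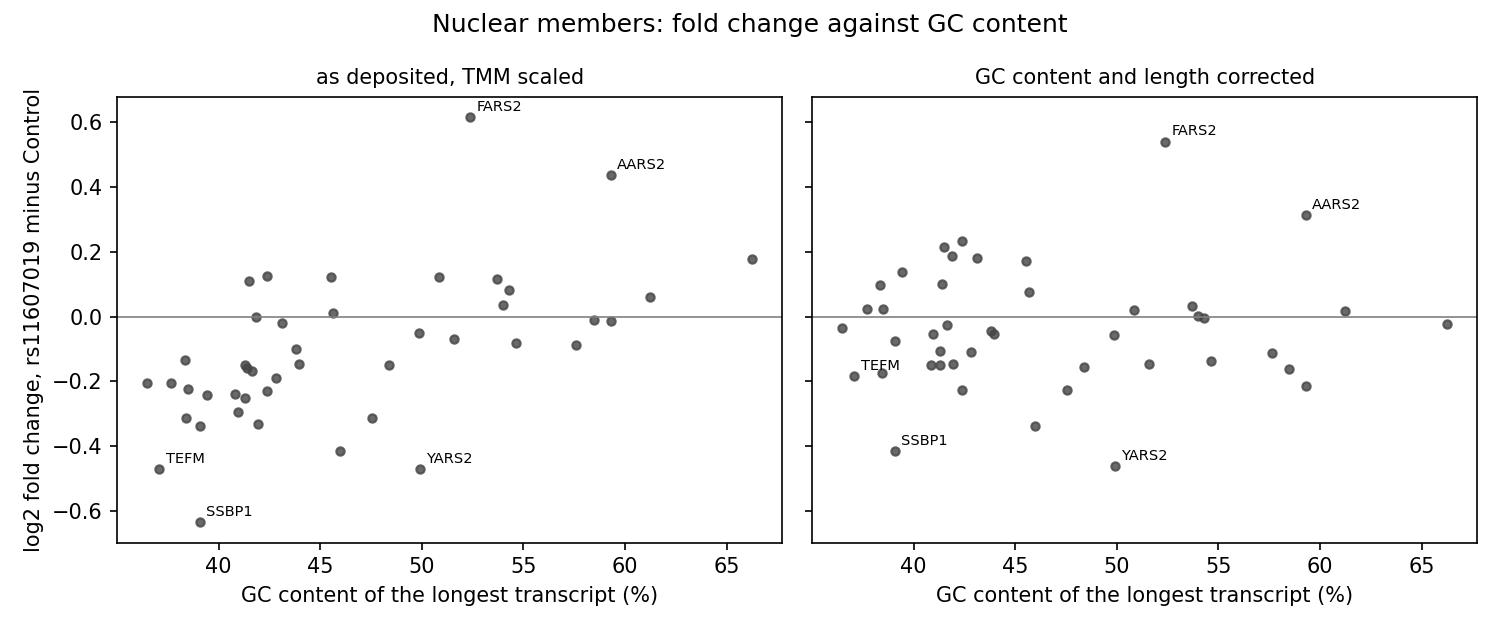
Log2 fold change of the 44 nuclear members, variant minus Control, against the GC content (%) of the longest transcript, before (left) and after (right) correction for GC content and length. The points slope upward on the left and lie level on the right, where the correction has taken out the trend with GC content. The 5 genes with an unadjusted p under 0.05 before correction are named.

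Library by library, the 2 sets shared their highest library but not their lowest. The median deviation of the nuclear members was 0.13 in Control 1, 0.04 in Control 2, 0.05 in variant 1, −0.09 in variant 2 and −0.02 in variant 3. For the mitochondrial genes variant 3 was lowest, at −0.24, and variant 2 lay at 0.03. Control 1 was the highest library at 21 of the 44 nuclear genes (47.7%) and variant 2 the lowest at 16 (36.4%), against 25.7% and 18.3% of all tested genes. By role, Control 1 stood at 0.34 for replication and 0.30 for transcription, at 0.14 and 0.15 for RNA processing and translation factors, and at −0.03 for the synthetases. Variant 3 was lowest for RNA processing, at −0.16, the role in which it came nearest to the mitochondrial genes.

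With the correction for GC content and length the order of the libraries was another in both sets. Control 1 then stood at −0.02 for the mitochondrial genes and 0.04 for the nuclear genes, just below variant 1 in the latter, and Control 2 at −0.01 and −0.00. By role Control 1 stood at 0.22 for replication, 0.06 for transcription and −0.05 for RNA processing. Variant 1 and variant 2 then had medians of 0.21 and 0.13 for the mitochondrial genes and 0.04 and −0.08 for the nuclear genes. Variant 3 had −0.21 and −0.01. With 5 libraries no correlation across libraries was computed.

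**Figure D5:**
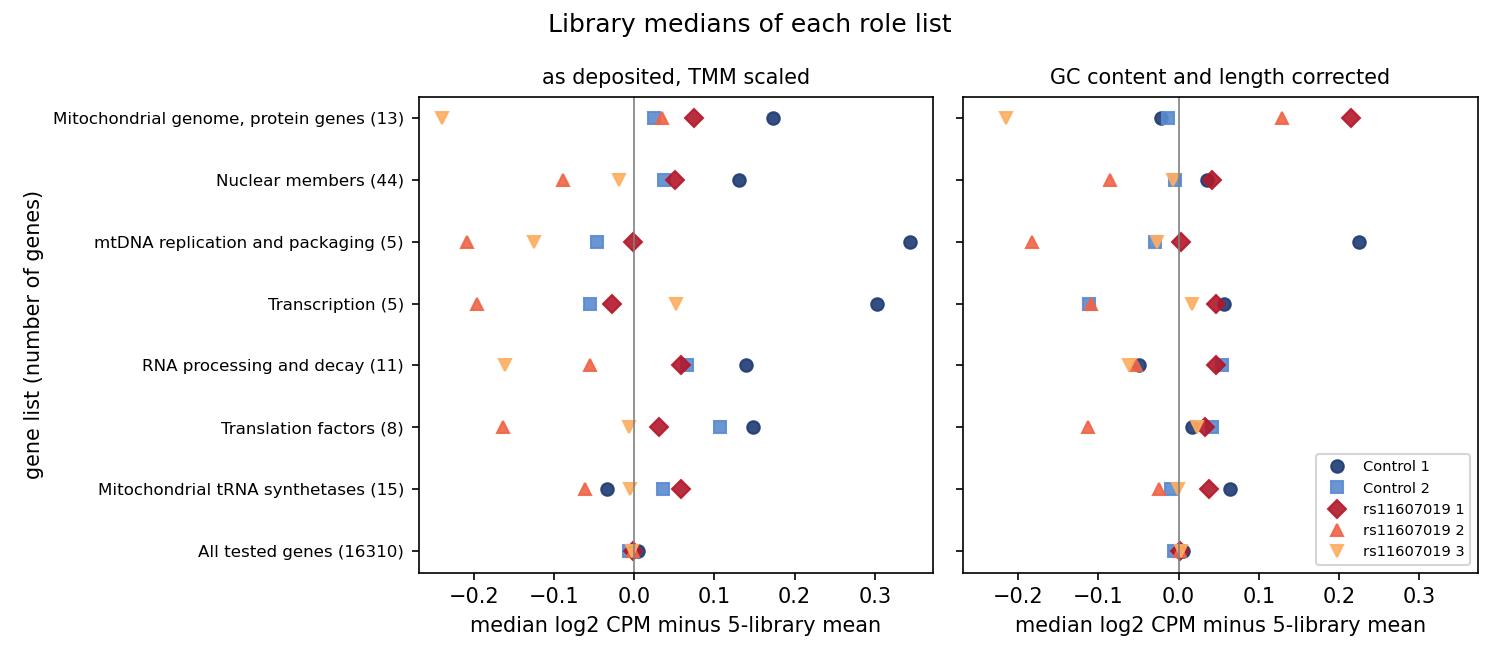
Median deviation of each gene list from the 5-library mean, in log2 CPM, 1 point for each library, before (left) and after (right) correction for GC content and length. Before correction Control 1 is highest in 6 of the 7 member lists shown, and variant 3 is lowest for the mitochondrial genes in both panels.

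A further 62 genes of mitochondrial gene expression that are not among the 57 were listed for comparison, such as tRNA-modifying enzymes, nucleases and ribosome assembly factors. Of these, 27 were higher and 35 lower, with a median of −0.03. At an unadjusted p under 0.05 there were 0, against 7.62% of all tested genes. The groups did not overlap at 12, against 24.8% of all tested genes. Of the 62 genes 10 were lower in this way (16.1%, against 13% of all tested genes) and 2 higher (3.23%, against 11.8%). Their library medians lay between −0.06 in variant 2 and 0.08 in variant 1, with Control 1 at 0.003. Control 1 stood at 0.02 there with the correction for GC content and length, and the median GC content was 47.9%, against 41.9% for the transcription genes and 47.5% for the replication genes.

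Promoters were set beside the expression values because many genes of this pathway are known targets of NRF1, GABPA and YY1. RefSeq windows of 300 bases around the start were at hand for 39 of the 44 nuclear members. Exact letters were searched on both strands, GCATGCGC for the core of the NRF1 motif, CCGGAAG for that of GABPA and other ETS factors, AAGATGGC for that of YY1, and GGGCGG for the GC box. No string contains another, but the ETS string ends in the letters with which the YY1 string begins, so matches of the pair can overlap. The ETS string was in 19 of 39 members (48.7%), against 10.7% of 27305 promoters. The NRF1 string was in 6 (15.4% against 3.27%), the YY1 string in 4 (10.3% against 3.03%) and the GC box in 25 (64.1% against 44.6%). The 27305 promoters were not restricted to genes with a row here, while all 39 members have one, so these shares compare unlike sets. Promoters of genes with levels like those of the members were not searched apart. A match describes letters and shows no binding. The members with the ETS string had a median log2 difference of −0.09 with 14 of 19 lower, and those without had −0.15 with 16 of 20 lower. With the GC box the median was −0.09 and 17 of 25 were lower, and without it −0.21 and 13 of 14. With the NRF1 string it was −0.15 and 5 of 6 were lower, against −0.15 and 25 of 33 without. With the YY1 string it was −0.09 and 2 of 4 were lower, against −0.15 and 28 of 35 without.

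The windows of the nuclear genes with an unadjusted p under 0.05 are shown, for those with an entry, with the matched strings in capitals. The build is GRCh38.p14 and each runs 5′ to 3′ on the gene's strand. SSBP1, TEFM and YARS2 were lower in the variant and FARS2 was higher.
SSBP1 (chr7:141738071-141738370, forward strand): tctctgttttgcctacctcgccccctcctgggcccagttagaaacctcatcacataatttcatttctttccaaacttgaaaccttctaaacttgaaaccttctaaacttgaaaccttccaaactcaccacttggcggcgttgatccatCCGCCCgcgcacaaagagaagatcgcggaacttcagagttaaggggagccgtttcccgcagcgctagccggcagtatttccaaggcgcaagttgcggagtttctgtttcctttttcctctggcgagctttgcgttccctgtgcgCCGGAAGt
TEFM (chr17:30906189-30906488, reverse strand): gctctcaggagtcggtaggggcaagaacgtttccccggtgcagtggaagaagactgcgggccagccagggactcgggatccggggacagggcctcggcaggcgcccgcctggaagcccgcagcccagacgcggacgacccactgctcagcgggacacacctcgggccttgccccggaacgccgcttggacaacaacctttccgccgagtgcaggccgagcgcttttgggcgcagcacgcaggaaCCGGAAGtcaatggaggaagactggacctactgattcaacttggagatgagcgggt
YARS2 (chr12:32755848-32756147, reverse strand): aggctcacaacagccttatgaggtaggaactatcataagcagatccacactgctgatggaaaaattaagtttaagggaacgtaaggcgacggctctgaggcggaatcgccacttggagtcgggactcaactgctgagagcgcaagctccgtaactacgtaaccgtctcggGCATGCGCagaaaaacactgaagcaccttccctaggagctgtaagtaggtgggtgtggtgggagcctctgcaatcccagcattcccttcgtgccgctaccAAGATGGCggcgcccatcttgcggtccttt
FARS2 (chr6:5260757-5261056, forward strand): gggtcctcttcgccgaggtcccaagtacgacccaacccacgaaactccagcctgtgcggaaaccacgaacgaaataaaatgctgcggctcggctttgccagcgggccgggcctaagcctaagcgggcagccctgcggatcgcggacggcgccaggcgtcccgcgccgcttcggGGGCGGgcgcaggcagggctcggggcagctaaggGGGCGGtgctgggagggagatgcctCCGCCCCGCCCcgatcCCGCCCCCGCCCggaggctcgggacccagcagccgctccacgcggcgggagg
SSBP1 has 1 ETS string and 1 GC box, TEFM 1 ETS string, YARS2 1 NRF1 and 1 YY1 string, and FARS2 6 GC boxes and none of the other strings. AARS2 is named without a sequence. GC content of the windows was 51%, 65.7%, 54% and 73%.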

How the data were processed

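Messenger RNA of 5 HEK293 cultures was measured. The authors deposited raw read counts per gene, whole numbers with no normalization, from single-end reads of 50 bases of a strand-specific mRNA library, per the labels' protocols. HISAT2, SAMtools, HTSeq and hg38 are named in the submitters' processing notes, with no versions or strand setting. The annotation and the low-count filter are not given in the sources used here. No gene had fewer than 3 counts in any of the 5 libraries, so a gene silent in a group has no row. Columns were matched to libraries by name, and 0 were left unused. Names for 16627 of 16677 identifiers came from a gene name table and for 46 from GENCODE release 29, whose GRCh38 positions, longest transcripts and GC content were used.

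Library totals of 17122569 to 17596084 counts were scaled by TMM after filterByExpr, which kept 16310 genes. All genes of the 5 libraries were fitted with edgeR 4.0.16 (robust quasi-likelihood F test, R 4.3.3), two-sided, with group as the only term and Benjamini-Hochberg adjustment over all tested genes at 0.05. Deviations use log2 CPM with a prior count of 2. The 57 members and the lists were chosen with earlier results of these data known, so medians and counts of a list are descriptions and have no test. Genes named with values in each library are the 13 mitochondrial genes, those of each role with the 3 largest differences or the highest level per length, those with an unadjusted p under 0.05 or with non-overlapping groups and a log2 fold change of 0.3 or more in size, and 8 core genes. Other genes, ratios and the rows of rRNAs and tRNAs were added after their values were seen. Alternatives were the RLE scaling, scaling without mitochondrial genes, no filter, at least 10 counts in every library, DESeq2 1.42.0, limma-voom (limma 3.58.1), the replicate block, a correction of each library for GC content and length (splines, 5 degrees of freedom, fitted on genes above a mean log2 CPM of 3), and leaving out each library. The labels give no batch.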

Additional observations from a re-analysis of the deposited data

How the results depend on the processing

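Of 162 alternative values of the main results, 140 kept their direction and stayed within the spread between libraries or within 1.5 times the count, and 454 values of the 35 genes named by rule included 23 of opposite sign. RLE scaling, scaling without mitochondrial genes and no filter moved none of the main results. DESeq2 called 32 genes at an adjusted p under 0.05, none of them a member. With the correction for GC content and length, 2 members had an unadjusted p under 0.05, and the medians were 0.0456 for the mitochondrial genes (the opposite sign), −0.0483 for the nuclear members, −0.0553 for transcription, −0.0039 for RNA processing and −0.0669 for translation factors. With that correction the sign turned for 16 of 57 members, 11 of the 35 named by rule and 5 of the other 22. These were MT-ND1 (0.0456), MT-ND2 (0.17), MT-ND4 (0.0115), MT-ND6 (0.0786), MT-CO1 (0.0339), MT-ATP8 (0.15), MT-CYB (0.15), POLRMT (−0.0219), SLIRP (0.14), ELAC2 (−0.0039) and MTRF1 (0.0226), and TFB1M (0.18), FASTKD1 (0.0228), FASTKD3 (0.0961), MTIF3 (0.0992) and RARS2 (0.19). The cause was not tested.

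The replicate block uses numbers that the labels do not tie to a shared culture or day, and Control and variant share only 2 of them. Same-numbered libraries had correlations of deviations of 0.12 and −0.113, so the numbers are not taken as pairs. With the replicate block 1557 genes and 3 members had an unadjusted p under 0.05, the RNA processing median was −0.0809, and 7 members had the opposite sign, MT-CO1 (0.0224), MT-CYB (0.0833), TFB1M, SUPV3L1, PARS2, RARS2 and VARS2.

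Leaving out 1 library at a time gave 0 to 4 genes at an adjusted p under 0.05 (4 without variant 3), 549 (without Control 1) to 1618 (without variant 3) at an unadjusted p under 0.05, and 0 to 7 members. Without Control 1, 1 Control is left and is assumed to vary like the variant libraries. The medians ran from −0.15 to −0.0683 for the nuclear members, from −0.46 to −0.0417 for replication, from −0.49 to −0.053 for transcription and from −0.23 to −0.0912 for RNA processing. The sign turned for 20 of 57 members, 8 of them named by rule, which ran from −0.21 to 0.0952 (MT-ND2), −0.19 to 0.0232 (MT-CO1), −0.47 to 0.0607 (MT-ATP8), −0.13 to 0.10 (MT-CYB), −0.0678 to 0.0463 (POLG), −0.64 to 0.31 (SLIRP), −0.0612 to 0.24 (ELAC2) and −0.25 to 0.0948 (TUFM). The other 12 were TFB1M, SUPV3L1, FASTKD5, MTRF1L, EARS2, HARS2, LARS2, PARS2, RARS2, SARS2, TARS2 and VARS2, the widest being MTRF1L (−0.10 to 0.36) and LARS2 (−0.17 to 0.28). With 2 Controls the spread between libraries, not counting depth, limits the abundant genes, while TSFM and VARS2 are also limited by counts.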
